A study of Drosophila melanogaster with 16 samples.

Results

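This account describes the best-measured intergenic long noncoding RNAs (lncRNAs) of Drosophila melanogaster embryos. They are genes whose identifier maps to a FlyBase symbol that begins with lncRNA: and whose genomic span overlaps no other gene of the deposited tables. Of 17753 genes in the tables, 17625 (99.3%) had a position in the BDGP6 annotation, 1898 carried such a symbol and 1224 of those were intergenic. The 200 with the highest mean over all 16 libraries were kept, in CPM, the estimated counts of a gene scaled to a common library total. The members were thus chosen by their mean CPM, which is given below only as a description. It covers 8 mutant libraries against 5 wild-type libraries of the same age, so a lncRNA that is high in mutants entered more easily than one that is low in them.

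All libraries were made from whole embryos with poly(A)-selected RNA, so the cells that hold a transcript are not known, and fewer cells of a type and less RNA per cell cannot be told apart. The groups were 4 libraries of Lola-I mutant ORC4 embryos aged 14 to 17 h, 4 libraries of transheterozygous Lola-I mutant ORE50/ORC4 embryos aged 14 to 17 h, 5 libraries of wild-type OregonR embryos aged 14 to 17 h and 3 libraries of OregonR embryos aged 2 to 4 h. The wild-type libraries of 14 to 17 h are numbered 1, 2, 3, 5 and 6. Lola-I is an isoform of the transcription factor Lola, and the series concerns its part in RNA polymerase II pausing at promoters.

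Long noncoding RNAs are transcripts that encode no known protein. Many are capped, spliced and polyadenylated like messenger RNAs, and in flies many are made at low levels, in few cells or for a short time. The best-known act in dosage compensation of the male X chromosome (the roX RNAs), in the silencing of transposons through small piRNAs (flamenco) and in the division of neural stem cells (cherub), but most carry only a CR number and have no known role.

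Library totals ran from 9025882 to 32521626 estimated counts. The ORC4 libraries held 27298377 to 28832013, the ORE50/ORC4 libraries 9025882 to 13226262, wild-type libraries 1 to 3 held 28717036 to 32521626 and wild-type libraries 5 and 6 held 10388386 and 10202584. Depth and genotype can therefore not be told apart between the mutants, while wild type had both depths. A count of 0 allows up to 3 counts, or 0.0922 to 0.332 CPM over the libraries (counting error only). The lola gene, measured as 1 span that cannot separate Lola-I from the other isoforms, had 44.8, 61.3, 39.2 and 53.7 TPM, counts per base of span scaled to a common total, in ORC4, 28.6, 36.8, 26.1 and 28.3 in ORE50/ORC4, and 39.0, 42.7, 36.7, 47.0 and 45.5 in wild type of 14 to 17 h. On the log2 scale the fold change was 0.17 ± 0.12 (SE, edgeR adjusted p = 0.310) in ORC4 and −0.42 ± 0.12 (edgeR adjusted p = 0.0117) in ORE50/ORC4, so this measure does not by itself check the ORC4 label.

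The 200 lncRNAs were weakly expressed. Their mean CPM ran from 0.192 to 136 with a median of 0.542, against a median of 0.00862 for the intergenic lncRNAs below them and 6.06 for all other genes. Only 59 exceeded 1 CPM and 11 exceeded 10 CPM. The single highest, CR31781, held 21.4% of the members' summed mean and the highest 10 held 65.4%. The members just inside the limit were CR45596 and CR45625 at 0.194 CPM and CR45054 at 0.192 CPM; just outside were CR44078 and CR44472 at 0.191 and CR43496 at 0.190 CPM. Of the 200, 77 had counts in all 16 libraries.

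In position and structure the lncRNAs were short and often unspliced in the annotation. Their span had a median of 1101 bases, running from 214 bases for CR40469 to 158841 for flamenco. The median was 589 bases for the weaker intergenic lncRNAs and 1704 bases for all other genes. CPM is not divided by length, so the choice of members can favour long spans. A single exon block made up 108 of the 200 (54.0%), against 75.8% of the weaker intergenic lncRNAs and 28.4% of other genes. They lay on chromosome arms 3R (52), 2R (40), 2L (37), X (34), 3L (32) and on chromosome 4 (5). The gap to the nearest annotated gene of any kind had a median of 572 bases, and 47 members stood under 200 bases from it. The nearest protein-coding gene was a median of 922 bases away; 104 had it within 1 kb, of which 41 were arranged divergently. Counts are assigned to a whole gene span, so reads from an extended neighbouring transcript could enter a span; 19 members lay within 1 kb downstream of a coding gene on the same strand, and their calls are given separately below.

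Different lncRNAs led the class at the 2 ages. Summed over the 200, the level was 639.9 ± 50.5 CPM in ORC4, 842 ± 34.0 in ORE50/ORC4, 504 ± 54.0 in wild type of 14 to 17 h and 558 ± 60.6 in wild type of 2 to 4 h (SD, n = 4, 4, 5 and 3). Without CR31781 the sums were 489 ± 42.4, 587 ± 12.5, 395 ± 35.7 and 557 ± 60.8 CPM in the same groups. At 14 to 17 h CR31781, flamenco and cherub led every genotype. At 2 to 4 h CR43887 led with 183 CPM (32.8% of the sum), followed by marge with 89.5 CPM (16%), the alphagamma-element transcript with 42.2 CPM and CR43837 with 30.9 CPM. The group with the highest mean was ORE50/ORC4 for 80 members, ORC4 for 46, wild type of 14 to 17 h for 33 and wild type of 2 to 4 h for 41, and the group with the lowest mean was wild type of 2 to 4 h for 139. These counts use the CPM values that chose the members, a choice that favours mutant and older embryos. No share over all genes was taken, so they describe the chosen members only.

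**Figure D1:**
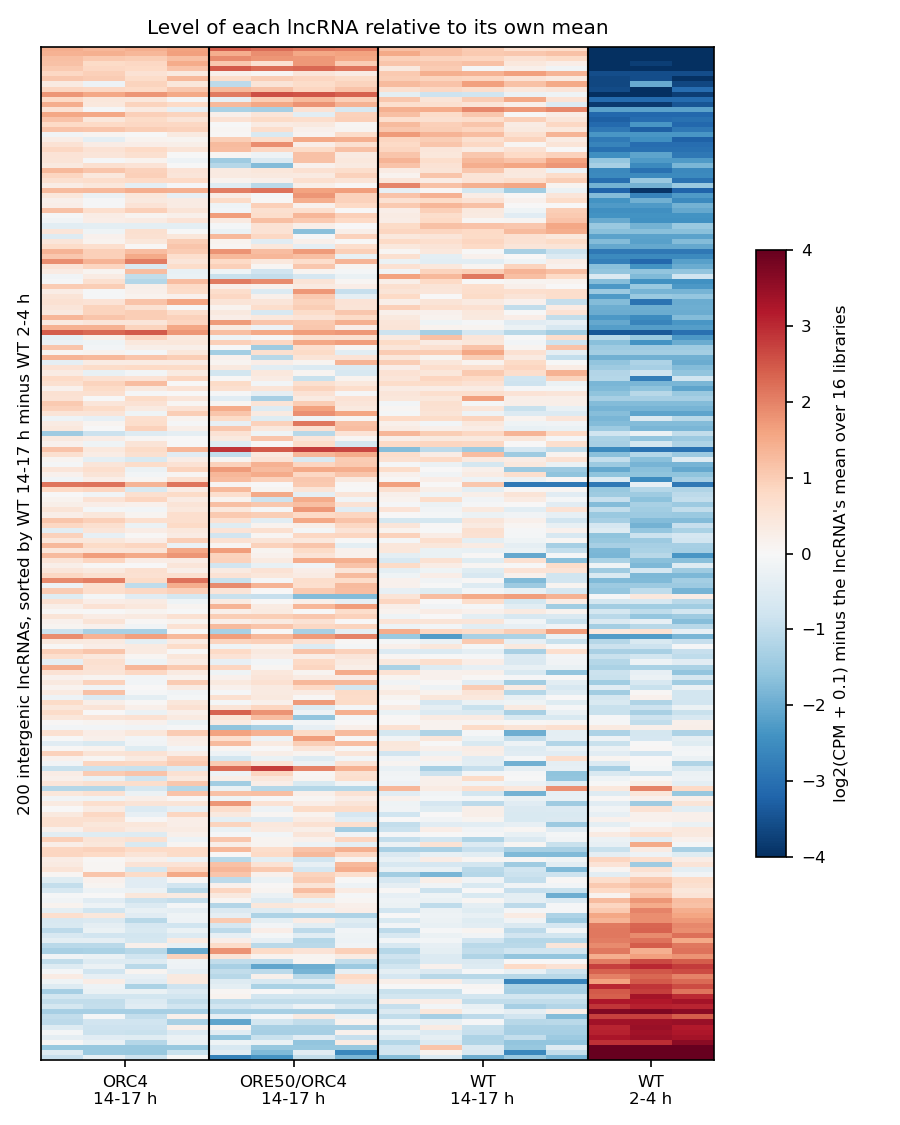
Level of each of the 200 lncRNAs (1 line each, down the page) in each of the 16 libraries (across, by group), as log2(CPM + 0.1) minus the lncRNA's own mean over the libraries, on a colour scale from −4 to 4 (log2). Lines are sorted by wild type of 14 to 17 h minus wild type of 2 to 4 h, so the low block at the top and the high block at the bottom of the 2 to 4 h columns follow from the sorting. At 2 to 4 h 139 lncRNAs had their lowest group mean, a count that the choice of members by mean CPM favours.

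Comparisons of single genes used edgeR's quasi-likelihood test on the rounded estimated counts, with Benjamini-Hochberg adjustment over all genes tested, and a gene is called where the adjusted p is under 0.05. Fold changes are mutant over wild type, ORE50/ORC4 over ORC4, or 14 to 17 h over 2 to 4 h, and ± beside a log2 fold change is its standard error. Of the 200 lncRNAs, 152 had enough counts to be tested at 14 to 17 h and 148 between the ages. Because a member can pass that filter through the group in which it is high, counts over the tested members describe these members and test nothing.

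Of the members with a described role, flamenco (X:21631891-21790731, plus strand) is the piRNA cluster that represses Gypsy-family transposons in ovarian follicle cells. Its level was 0.955, 1.12, 0.850 and 1.33 TPM in ORC4, 1.52, 1.64, 1.24 and 1.37 TPM in ORE50/ORC4 and 0.807, 0.760, 0.656, 0.723 and 0.627 TPM in wild type of 14 to 17 h. Every library of either mutant lay above every wild-type library. Its fold change on the log2 scale was 0.50 ± 0.10 in ORC4 (edgeR adjusted p = 0.00253) and 1.09 ± 0.10 in ORE50/ORC4 (edgeR adjusted p = 3.15e-06); against the shallow wild-type libraries 5 and 6 alone the ORC4 value was 0.57 (edgeR adjusted p = 0.0591). The span of flamenco holds annotated transposons and its estimated counts were not whole numbers, so reads shared with other copies enter its value.

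The lncRNA cherub (3R:11247631-11256123, minus strand) is known from larval neural stem cells, where it is segregated unequally at division. It was present almost only in the older embryos, with 18.4, 15.0, 13.1, 13.7 and 14.5 TPM in wild type of 14 to 17 h against 0.0900, 0.0562 and 0.0616 TPM in wild type of 2 to 4 h, a log2 fold change of 7.66 ± 0.21 (edgeR adjusted p = 8.71e-10). In the mutants it had 17.0, 17.8, 16.2 and 21.2 TPM in ORC4 and 16.3, 24.4, 16.8 and 18.6 TPM in ORE50/ORC4, ranges that overlap wild type. In log2 terms the change was 0.21 ± 0.10 in ORC4 (edgeR adjusted p = 0.134) and 0.43 ± 0.10 in ORE50/ORC4 (edgeR adjusted p = 0.00337). The ORE50/ORC4 call was lost on the TPM scale (limma on log2(TPM + 1), 0.32, adjusted p = 0.0553), and without wild-type library 1 the ORC4 value was 0.28 (edgeR adjusted p = 0.0399).

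The dosage compensation RNA roX2 (X:11579065-11580432, plus strand) guides the MSL protein complex to the male X chromosome. It had 19.5, 30.4, 22.7 and 27.2 TPM in ORC4, 25.0, 25.6, 28.7 and 26.9 TPM in ORE50/ORC4 and 21.7, 21.3, 21.5, 16.8 and 16.3 TPM in wild type of 14 to 17 h, against 5.05, 5.59 and 3.99 TPM at 2 to 4 h. All ORE50/ORC4 libraries lay above wild type, while ORC4 overlapped it. The log2 fold change was 0.53 ± 0.14 in ORE50/ORC4 (edgeR adjusted p = 0.00645), 0.28 ± 0.14 in ORC4 (edgeR adjusted p = 0.131) and 2.03 ± 0.17 between the ages (edgeR adjusted p = 1.07e-06). The protein-coding partners did not move the same way: of 6 dosage compensation genes tested, 4 were lower in ORE50/ORC4, namely msl-1 (log2 −1.12), mof (−1.18), msl-3 (−0.47) and Clamp (−0.31), and none was higher. In ORC4 Clamp alone was called, at 0.36, and all 6 were lower at 14 to 17 h than at 2 to 4 h.

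The alphagamma-element transcript CR32865 (3R:12475336-12478267, minus strand) comes from the heat-shock locus that holds Hsp70 genes. It had 18.4, 18.3, 17.3 and 30.4 TPM in ORC4, 22.3, 23.6, 30.8 and 21.1 TPM in ORE50/ORC4, 23.8, 25.2, 23.7, 20.3 and 23.5 TPM in wild type of 14 to 17 h and 32.3, 40 and 33.7 TPM at 2 to 4 h. ORC4 library 4 stood apart from the other 3 ORC4 libraries, which lay below all wild-type libraries of that age. The ORC4 log2 fold change was −0.22 (edgeR adjusted p = 0.315) with that library and −0.41 (edgeR adjusted p = 0.0418) without it. Between the ages the log2 fold change was −0.58 ± 0.08 (edgeR adjusted p = 5.83e-05).

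The named members marge and dntRL were highest in the young embryos. marge (3L:14976626-14977631, minus strand) had 16.6, 28.9, 24.7, 12.3 and 13.6 TPM in wild type of 14 to 17 h against 232, 265 and 265 TPM at 2 to 4 h, a log2 fold change of −3.67 ± 0.23 (edgeR adjusted p = 1.40e-07). The mutant libraries overlapped wild type of 14 to 17 h, and ran 16.4 to 22.3 TPM for ORC4 and 16.8 to 24.0 TPM for ORE50/ORC4. dntRL (2R:4621118-4622481) had 0.473, 0.202, 0.407, 0.185 and 0.565 TPM in wild type of 14 to 17 h against 1.28, 2.00 and 1.63 TPM at 2 to 4 h (log2 −2.11 ± 0.35, edgeR adjusted p = 0.000212), and was too low to be tested in the mutants. Of 24 characterised fly lncRNAs looked up, these 4 (cherub, roX2, marge and dntRL) were members, acal fell below the 200, and roX1, Hsromega, yar, bxd, noe, sphinx, let7C, iab8 and CRG overlap another gene. The rest of the 24 were not analysed here.

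**Figure D2:**
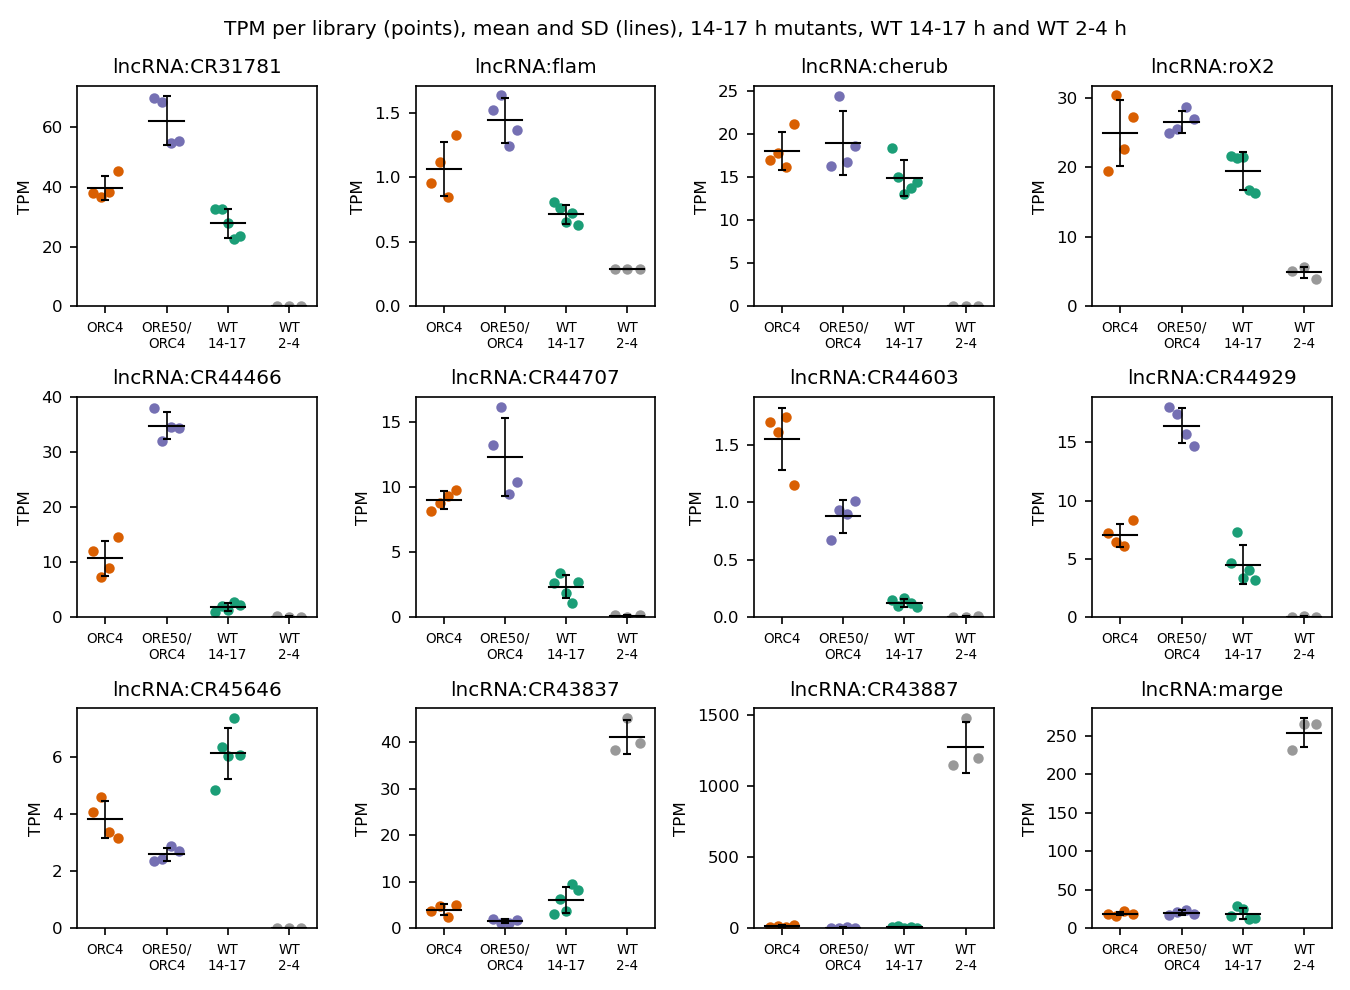
TPM in every library for 12 named lncRNAs, 1 panel each with its own axis, with groups across from ORC4 through ORE50/ORC4 and wild type of 14 to 17 h to wild type of 2 to 4 h; points are libraries and bars are the group mean ± SD (n = 4, 4, 5 and 3). CR44466 runs from 32.1 to 38.1 TPM in ORE50/ORC4, against 1.04 to 2.86 TPM in wild type of 14 to 17 h, while CR43887 and marge are high at 2 to 4 h.

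In ORC4 embryos more of the lncRNAs were called higher than lower. Of 152 tested, 37 (24.3%) were higher and 11 (7.24%) lower than in wild type of 14 to 17 h, and 104 were not called. Over all 11431 genes tested 15.5% were called higher and 17.2% lower, 32.7% in all, against 31.6% of the lncRNAs. Every ORC4 library lay above every wild-type library for 32 of the tested lncRNAs and below for 13, against 13.4% and 14.4% of all genes. A change of at least 2-fold was called higher for 26 lncRNAs and lower for 9, against 3.60% and 6.58% of all genes. The median log2 fold change was 0.21 for the tested lncRNAs and 0.00 for all genes. Their median standard error was 0.31, against 0.13 over all genes. When the 200 were instead ranked by wild type of 14 to 17 h alone, which shares 169 of the members, 30 were higher and 11 lower of 142 tested; this ranking was chosen after the data had been seen. Without wild-type library 3 the lower lncRNAs numbered 6, and without ORC4 library 2 or 4 the higher ones numbered 21 or 22.

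The largest ORC4 increases among lncRNAs that averaged 50 or more estimated counts where they were higher were in CR44603, CR44922, CR43928, CR34047 and CR44707. CR44603 (2L:1618637-1626021, minus strand) had 1.70, 1.61, 1.74 and 1.15 TPM in ORC4, 0.669, 0.931, 0.897 and 1.01 TPM in ORE50/ORC4 and 0.153, 0.0984, 0.170, 0.120 and 0.0916 TPM in wild type. Every mutant library lay well above wild type, and ORC4 above ORE50/ORC4. On the log2 scale the fold change was 3.49 ± 0.23 in ORC4 (edgeR adjusted p = 1.21e-07) and 2.80 ± 0.24 in ORE50/ORC4 (edgeR adjusted p = 1.16e-06). Its nearest coding gene, RFeSP, an iron-sulphur subunit of respiratory complex III that lies 4477 bases away, changed by −0.19 and 0.02 on the log2 scale in the same comparisons.

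CR44922 (3R:4375084-4377600, plus strand), which overlaps annotated transposon sequence, had 10.1, 8.93, 9.90 and 8.87 TPM in ORC4, 11.5, 18.2, 15.1 and 14.3 TPM in ORE50/ORC4 and 2.21, 1.60, 1.58, 2.42 and 2.56 TPM in wild type. The groups did not overlap, and the order was ORE50/ORC4, ORC4, wild type. Its fold change on the log2 scale was 2.17 ± 0.17 in ORC4 (edgeR adjusted p = 6.45e-07) and 2.96 ± 0.17 in ORE50/ORC4 (edgeR adjusted p = 4.29e-08). CR44707 (X:18682143-18683303, minus strand) had 8.17, 8.75, 9.32 and 9.74 TPM in ORC4, 13.2, 16.1, 9.47 and 10.4 TPM in ORE50/ORC4 and 2.62, 3.43, 1.90, 1.12 and 2.74 TPM in wild type. The mutants overlapped each other and both lay above wild type. In log2 terms the change was 1.83 ± 0.21 in ORC4 (edgeR adjusted p = 2.71e-05) and 2.42 ± 0.22 in ORE50/ORC4 (edgeR adjusted p = 1.96e-06).

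CR43928 and CR34047 had their highest group mean in ORC4. CR43928 (2L:3476343-3477648) had 3.80, 5.30, 4.48 and 5.82 TPM in ORC4, 2.64, 1.75, 2.01 and 1.59 TPM in ORE50/ORC4 and 1.07, 1.21, 1.47, 0.195 and 1.39 TPM in wild type. The log2 fold change was 2.04 ± 0.30 in ORC4 (edgeR adjusted p = 0.000205) and 0.93 ± 0.34 in ORE50/ORC4 (edgeR adjusted p = 0.0336). The ORE50/ORC4 call was lost against wild-type libraries 5 and 6 alone (1.36, edgeR adjusted p = 0.112). Thor, the translation inhibitor 4E-BP encoded 786 bases away, was called higher in both mutants too, at 0.84 and 0.91. CR34047 (3L:5098376-5099795) had 5.61, 4.11, 6.36 and 2.18 TPM in ORC4, 2.39, 2.02, 2.18 and 3.68 TPM in ORE50/ORC4 and 1.16, 1.03, 0.998, 1.24 and 1.8 TPM in wild type. All mutant libraries were above wild type, with log2 fold changes of 1.88 ± 0.33 in ORC4 (edgeR adjusted p = 0.000817) and 1.19 ± 0.36 in ORE50/ORC4 (edgeR adjusted p = 0.0132). Against the shallow wild-type libraries 5 and 6 alone the ORC4 value of CR34047 was 1.52 (edgeR adjusted p = 0.108). Its ORE50/ORC4 value was then 0.79 (edgeR adjusted p = 0.152), so neither call was kept.

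CR42861 was raised by a like factor in both mutants. This lncRNA (X:13744928-13745476) had 26.0, 23.6, 22.9 and 21.4 TPM in ORC4, 29.0, 23.1, 22.9 and 25.1 TPM in ORE50/ORC4 and 8.31, 12.1, 12, 13 and 5.64 TPM in wild type of 14 to 17 h. Both mutant groups lay above wild type, at log2 1.12 ± 0.20 (edgeR adjusted p = 0.00100) and 1.37 ± 0.21 (edgeR adjusted p = 0.000154). At 2 to 4 h it had 12.8, 15.5 and 14.0 TPM, and the difference between the ages was not called (log2 −0.44, edgeR adjusted p = 0.141). Pdcd4, 101 bases away, was not called in ORC4 and was lower in ORE50/ORC4, at −1.31.

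CR44938 and CR43130 were called higher in ORC4 and not in ORE50/ORC4. CR44938 (3R:10385494-10387385) had 3.08, 2.76, 2.41 and 2.44 TPM in ORC4, 1.32, 1.66, 1.58 and 1.96 TPM in ORE50/ORC4 and 1.58, 1.30, 1.52, 1.40 and 0.518 TPM in wild type, a log2 fold change in ORC4 of 0.97 ± 0.23 (edgeR adjusted p = 0.00695). The difference between the mutants was not called for it. CR43130 (3R:8819618-8821098) had 10.7, 12.3, 12.4 and 17.1 TPM in ORC4, 2.59, 9.53, 4.45 and 6.57 TPM in ORE50/ORC4 and 6.61, 8.93, 6.76, 6.44 and 5.34 TPM in wild type. It overlaps the annotated gene aqz, which is not in the tables, so its reads may come from either. Its ORC4 log2 fold change was 0.87 ± 0.24 (edgeR adjusted p = 0.0164), and 0.74 without ORC4 library 4 (edgeR adjusted p = 0.0548).

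The best-measured decreases in ORC4 were CR45646 and CR44830. CR45646 (3R:22539996-22541279) had 4.09, 4.62, 3.39 and 3.17 TPM in ORC4, 2.37, 2.43, 2.87 and 2.70 TPM in ORE50/ORC4 and 4.86, 6.37, 6.05, 7.36 and 6.07 TPM in wild type. Every mutant library lay below every wild-type library. On the log2 scale the fold change was −0.73 ± 0.18 in ORC4 (edgeR adjusted p = 0.00813) and −1.15 ± 0.20 in ORE50/ORC4 (edgeR adjusted p = 0.000425); against wild-type libraries 1 to 3 alone the ORC4 value was −0.63 (edgeR adjusted p = 0.0502). CR44830 (2R:24955777-24957359) had 2.42, 1.66, 3.53 and 2.73 TPM in ORC4, 0.745, 2.80, 2.89 and 3.39 TPM in ORE50/ORC4 and 4.66, 4.37, 6.07, 4.37 and 5.55 TPM in wild type, again with no overlap. Its fold change on the log2 scale was −1.02 ± 0.31 in ORC4 (edgeR adjusted p = 0.0250) and −0.96 ± 0.34 in ORE50/ORC4 (edgeR adjusted p = 0.0277). Those calls were lost when single libraries were left out: the ORC4 call was lost without wild-type library 3 (−0.92, edgeR adjusted p = 0.0611) or without ORC4 library 1 (−1.0, 0.0566), 2 (−0.87, 0.0811) or 4 (−1.02, 0.0545), and the ORE50/ORC4 call without wild-type library 3 (−0.87, 0.0606) or 6 (−0.92, 0.0501) or ORE50/ORC4 library 2 (−0.98, 0.0528).

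**Figure D3:**
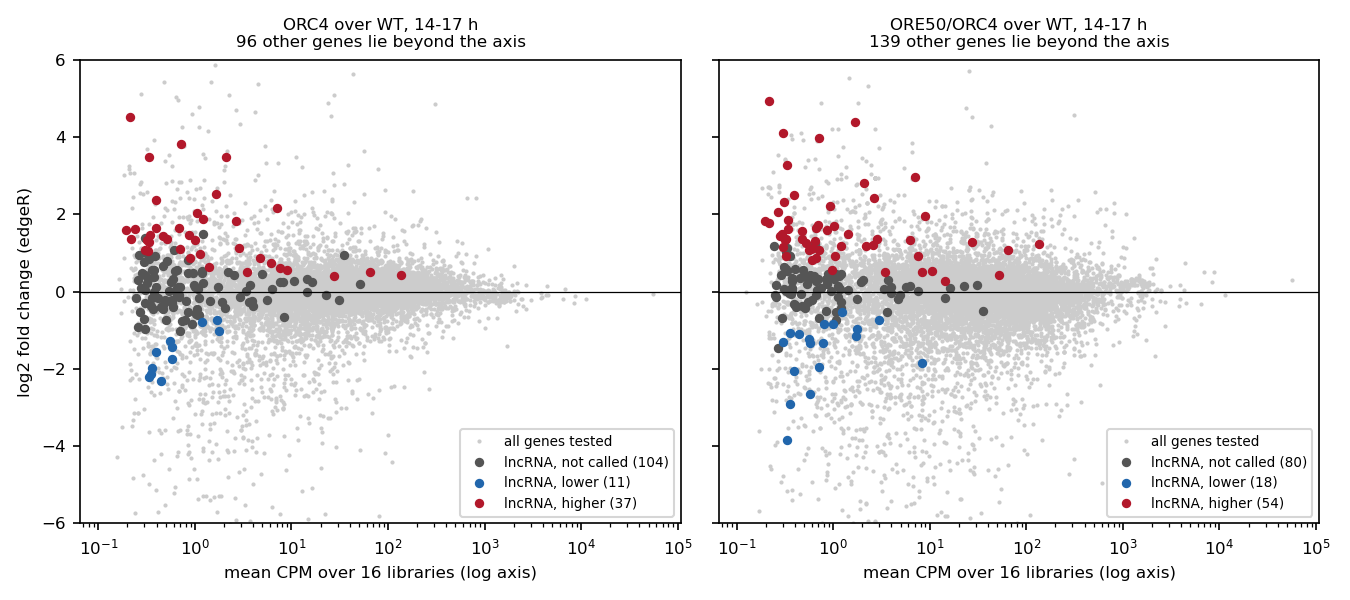
Log2 fold change against wild type of 14 to 17 h (vertical) by mean CPM on a log axis (horizontal), for ORC4 in the left panel and ORE50/ORC4 in the right; grey points are all genes tested and coloured points are the 152 lncRNAs tested, by call. In ORC4 37 lncRNAs were called higher and 11 lower; in ORE50/ORC4 54 were called higher and 18 lower.

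In ORE50/ORC4 embryos more lncRNAs were called in each direction, as were more genes overall. Of 152 tested, 54 (35.5%) were higher and 18 (11.8%) lower than in wild type, together 47.4% of the lncRNAs. The figure over all genes was 54.0%, made up of 27.0% higher and 27.0% lower. Every ORE50/ORC4 library lay above every wild-type library for 39 of the tested lncRNAs and below for 11, against 19.7% and 23.6% of all genes. A change of at least 2-fold was called higher for 43 lncRNAs and lower for 13, against 5.25% and 11.6% of all genes. The median log2 fold change was 0.32 for the tested lncRNAs and 0.01 for all genes. With the 200 ranked by wild type of 14 to 17 h alone, 45 were higher and 18 lower of 142 tested. Without wild-type library 3 the lower lncRNAs numbered 11, and against the shallow wild-type libraries alone the calls were 28 higher and 4 lower.

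CR44466 had the largest increase of these in ORE50/ORC4. This lncRNA of 501 bases (2R:16845495-16845995, plus strand) had 12.1, 7.32, 9.01 and 14.5 TPM in ORC4, 38.1, 32.1, 34.6 and 34.3 TPM in ORE50/ORC4 and 1.04, 2.08, 1.35, 2.86 and 2.18 TPM in wild type of 14 to 17 h, where it had only 4, 8, 6, 4 and 3 counts. The 3 groups did not overlap. In log2 terms the change was 4.39 ± 0.28 in ORE50/ORC4 (edgeR adjusted p = 8.49e-08), 2.54 ± 0.28 in ORC4 (edgeR adjusted p = 1.71e-05) and 1.85 ± 0.24 between ORE50/ORC4 and ORC4 (edgeR adjusted p = 0.000155). The difference between the mutants was 1.03 (edgeR adjusted p = 0.218) with depth class, deep or shallow, as a covariate. Its nearest coding gene moved the other way: Ugt37C1, a UDP-glycosyltransferase gene that lies 457 bases away on the opposite strand, had 10.5 ± 2.30 TPM in ORC4, 5.58 ± 0.975 TPM in ORE50/ORC4 and 35.1 ± 11.4 TPM in wild type (SD, n = 4, 4 and 5). Ugt37C1 had a log2 fold change of −1.79 in ORC4 (edgeR adjusted p = 0.000215) and −2.56 in ORE50/ORC4 (edgeR adjusted p = 1.42e-05).

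CR31781, the most abundant of the class (2L:16869346-16878300, plus strand, 8955 bases), had 38.1, 36.5, 38.3 and 45.4 TPM in ORC4, 69.8, 68.5, 54.8 and 55.5 TPM in ORE50/ORC4 and 32.7, 32.7, 27.9, 22.5 and 23.6 TPM in wild type of 14 to 17 h. Both mutants lay above wild type and ORE50/ORC4 above ORC4. On the log2 scale the fold change was 1.24 ± 0.10 in ORE50/ORC4 (edgeR adjusted p = 9.16e-07), 0.44 ± 0.10 in ORC4 (edgeR adjusted p = 0.00535) and 0.80 ± 0.11 between the mutants (edgeR adjusted p = 0.000201). It made up 30.3% of the summed CPM of the 200 in ORE50/ORC4, 23.6% in ORC4 and 21.6% in wild type.

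CR44929 and CR30009 followed the same order. CR44929 (3R:6101958-6104863) had 7.27, 6.44, 6.15 and 8.35 TPM in ORC4, 18.0, 17.4, 15.7 and 14.7 TPM in ORE50/ORC4 and 4.62, 7.31, 3.35, 4.07 and 3.16 TPM in wild type; ORC4 overlapped wild type and ORE50/ORC4 did not. Its fold change on the log2 scale was 1.95 ± 0.19 in ORE50/ORC4 (edgeR adjusted p = 4.25e-06) and 0.57 ± 0.19 in ORC4 (edgeR adjusted p = 0.0347). The ORC4 call was lost against wild-type libraries 1 to 3 alone (0.43, edgeR adjusted p = 0.194). Gasp, a chitin-binding protein gene 1071 bases downstream on the same strand, had 254 ± 56 TPM in ORC4, 471 ± 93.0 TPM in ORE50/ORC4 and 189.7 ± 32.3 TPM in wild type (SD), and was called higher in ORE50/ORC4 alone, at log2 1.39. CR30009 (2R:10261315-10263827, minus strand) had 24.7, 27.0, 21.0 and 36.6 TPM in ORC4, 51.7, 51.7, 36.8 and 40.3 TPM in ORE50/ORC4 and 20.3, 21.6, 16.9, 18.5 and 20.9 TPM in wild type. Its log2 fold change in ORE50/ORC4 was 1.29 ± 0.13 (edgeR adjusted p = 5.32e-06). The ORC4 value of 0.41 ± 0.13 (edgeR adjusted p = 0.0271) lost its call without ORC4 library 2 (0.40, edgeR adjusted p = 0.067) or 4 (0.27, 0.0992), or wild-type library 1 (0.0503) or 3 (0.36, 0.0675). That call was also lost against wild-type libraries 1 to 3 alone (0.44, edgeR adjusted p = 0.0771) or 5 and 6 alone (0.38, 0.202).

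Smaller and well-measured increases in ORE50/ORC4 were seen in CR43431, CR44042 and CR44810. CR43431 (3L:12648907-12653090) had 4.28, 3.80, 3.84 and 4.83 TPM in ORC4, 5.47, 6.18, 5.69 and 5.39 TPM in ORE50/ORC4 and 2.66, 3.06, 2.23, 1.90 and 1.98 TPM in wild type, with log2 fold changes of 0.74 ± 0.12 in ORC4 (edgeR adjusted p = 0.000449) and 1.34 ± 0.12 in ORE50/ORC4 (edgeR adjusted p = 2.38e-06). For CR44042 (2R:1348167-1349167) and CR44810 (2R:24325027-24330277) the ORE50/ORC4 log2 fold changes were 1.22 ± 0.16 and 0.92 ± 0.09 (edgeR adjusted p = 5.41e-05 and 5.23e-06). CR44810 had 4.00, 3.67, 3.41 and 4.24 TPM in ORC4, 6.02, 6.06, 5.15 and 4.83 TPM in ORE50/ORC4 and 3.39, 3.27, 3.10, 2.65 and 2.95 TPM in wild type, so ORE50/ORC4 lay above the other groups. Both lncRNAs missed the call in ORC4, at 0.43 and 0.25 (edgeR adjusted p = 0.0538 and 0.0537). The transcription factor gene slbo, 1245 bases from CR44810, was called higher in ORE50/ORC4, at 1.20.

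The decreases in ORE50/ORC4 included CR43837, CR31386 and CR44597. CR43837 (X:6995882-6997799, minus strand) had 3.76, 4.80, 2.47 and 5.00 TPM in ORC4, 2.00, 1.23, 1.16 and 1.82 TPM in ORE50/ORC4 and 3.11, 6.26, 3.70, 9.55 and 8.17 TPM in wild type. ORE50/ORC4 lay below the other groups, while ORC4 overlapped wild type. In log2 terms the change was −1.86 ± 0.39 in ORE50/ORC4 (edgeR adjusted p = 0.00143) and −0.66 ± 0.33 in ORC4 (edgeR adjusted p = 0.148); against the shallow wild-type libraries 5 and 6, which were the highest, the ORC4 value was −1.23 (edgeR adjusted p = 0.0261), and against wild-type libraries 1 to 3, which match ORC4 in depth, it was −0.16 (edgeR adjusted p = 0.710). The gap junction gene Inx2, 873 bases away, had 166 ± 21.4, 162 ± 13.6 and 164 ± 11.3 TPM in ORC4, ORE50/ORC4 and wild type (SD). CR31386 (3R:11269415-11305608) had 0.240 to 0.260 TPM in ORC4, 0.124 to 0.176 TPM in ORE50/ORC4 and 0.168 to 0.330 TPM in wild type, a log2 fold change in ORE50/ORC4 of −0.74 ± 0.17 (edgeR adjusted p = 0.00283). That call was lost against wild-type libraries 5 and 6 alone (−0.43, edgeR adjusted p = 0.204). CR44597 (2L:12571160-12571606) had 18.2, 18.2, 16.1 and 16.3 TPM in ORC4, 7.62, 13.5, 8.06 and 7.87 TPM in ORE50/ORC4 and 17.4, 16.5, 14.5, 10.4 and 10.6 TPM in wild type, where the 2 shallow libraries were the lowest. Its ORE50/ORC4 log2 fold change was −0.53 ± 0.21 (edgeR adjusted p = 0.0448), and −0.15 (edgeR adjusted p = 0.763) against those 2 libraries alone, which match ORE50/ORC4 in depth.

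The comparisons of the mutants with wild type share their wild-type libraries, so the lncRNAs called in both were also counted with separate ones. ORC4 was set against wild-type libraries 1 to 3 and ORE50/ORC4 against libraries 5 and 6, each pairing libraries of like depth. ORC4 then had 23 lncRNAs higher and 16 lower of 141 tested, where 15.0% of all genes were higher and 15.5% lower. ORE50/ORC4 had 28 higher and 4 lower of 82 tested, where 23.0% of all genes were higher and 26.4% lower. Higher in both were 11 lncRNAs, which is 47.8% of the ORC4 list and 39.3% of the ORE50/ORC4 list, and none was called in opposite directions. Over all genes the shared part of the higher lists was 36.0% and 24.8%, and of the 1699 genes higher in ORC4, 575 were called lower in ORE50/ORC4. Of the 1762 genes lower in ORC4, 82 were called higher. CR43440 was the 1 lncRNA lower in both, 6.25% of the ORC4 list and 25.0% of the ORE50/ORC4 list, against 53.3% and 33.1% over all genes. These shares are not on a like basis, since 8 of the 16 lncRNAs lower in ORC4 were tested in the other comparison, against 1671 of 1762 genes; of the 23 higher ones 16 were tested, against 1626 of 1699 genes.

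The 11 lncRNAs higher in both were CR31781, flamenco, CR44922, CR43431, CR42861, CR44707, CR44603, CR44466, CR43883, CR32368 and CR44932. With these separate wild-type libraries the ORC4 and ORE50/ORC4 log2 fold changes were 2.78 and 3.78 for CR44466, 3.41 and 3.04 for CR44603, 2.36 and 2.60 for CR44922 and 1.73 and 2.69 for CR44707. They were 0.30 and 1.47 for CR31781 and 0.47 and 1.13 for flamenco. CR44932 (3R:6895178-6896128, minus strand), which begins 125 bases beyond the 3′ end of the homeotic gene Antp on the same strand, had 1.33 in ORC4 and 3.27 in ORE50/ORC4.

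**Figure D4:**
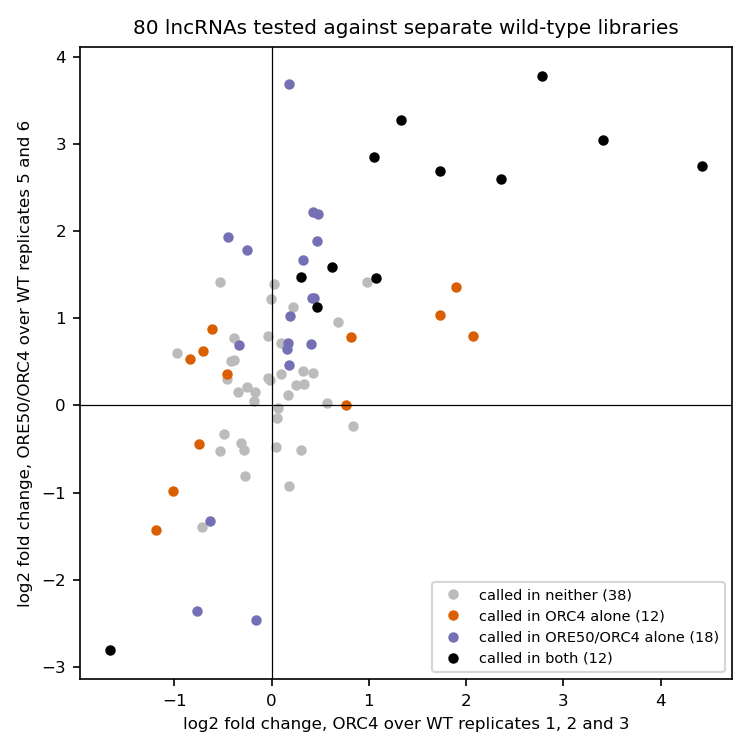
Log2 fold change of each lncRNA tested in both comparisons, ORC4 over wild-type libraries 1 to 3 (horizontal) and ORE50/ORC4 over wild-type libraries 5 and 6 (vertical), coloured by where it was called; no library enters both axes. Of the 12 lncRNAs called in both, 11 lie in the upper right and CR43440 in the lower left.

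The mutants also differed from each other at some lncRNAs. Of 152 tested, 23 (15.1%) were higher and 12 (7.89%) lower in ORE50/ORC4 than in ORC4, 23.0% in all, against 37.3% of all genes (19.9% higher, 17.4% lower). ORE50/ORC4 lay wholly above ORC4 for 23 and below for 14, against 14.3% and 16.7% of all genes, and by at least 2-fold 9 were called higher and 5 lower, against 1.61% and 6.97%. The higher ones included CR44466, CR44929, CR30009, CR31781, CR44922 and CR44810, described above. CR44042 had 13.3, 13.6, 12.7 and 8.77 TPM in ORE50/ORC4 against 7.17, 7.61, 6.87 and 9.43 TPM in ORC4, a log2 fold change of 0.79 ± 0.17 (edgeR adjusted p = 0.00291). All ORE50/ORC4 libraries are shallower than all ORC4 libraries. With depth class (deep or shallow) as a covariate, which only the wild-type libraries can estimate, 21 lncRNAs were higher and 2 lower; CR44466 (1.03, edgeR adjusted p = 0.218), CR44042 (0.80, 0.0606) and CR44922 (0.24, 0.501) were then not called. The 12 lower became 6 and 5 without ORC4 library 1 or 2, and 5 and 6 without ORE50/ORC4 library 1 or 2.

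Lower in ORE50/ORC4 than in ORC4 were CR43887, CR43928, CR43130, CR43837, CR44597, CR44603 and CR31386. CR43887 (3L:11693135-11693661, plus strand) had 2.62, 3.76, 9.49 and 5.36 TPM in ORE50/ORC4 against 11.1, 17.6, 11.7 and 22.8 TPM in ORC4, with wild type of 14 to 17 h between and across them at 6.23, 14.6, 4.95, 7.24 and 5.35 TPM. The log2 fold change between the mutants was −1.44 ± 0.44 (edgeR adjusted p = 0.0213). It was lost without ORC4 library 2 (−1.35, 0.0525) or 4 (−1.24, 0.051), ORE50/ORC4 library 1 (−1.20, 0.0709) or 2 (−1.25, 0.0625), and with depth class as a covariate (−1.08, edgeR adjusted p = 0.301). For CR43928 it was −1.12 ± 0.32 (edgeR adjusted p = 0.0158) and for CR43130 −1.05 ± 0.27 (edgeR adjusted p = 0.00907), both lost with that covariate (−0.52, 0.57, and −0.78, 0.213). The differences of CR43837 (−1.20, edgeR adjusted p = 0.0309), CR44603 (−0.68, 0.0221) and CR31386 (−0.58, 0.0201) were lost in some leave-one-out fits. CR43837 lost its call without ORC4 library 1, 2 or 4 or ORE50/ORC4 library 2 or 3 (−1.22 to −1.05, edgeR adjusted p from 0.0513 to 0.083). CR44603 lost it without ORC4 library 1, 2 or 3 or ORE50/ORC4 library 1 (−0.65 to −0.58, 0.0574 to 0.0712), and CR31386 without ORE50/ORC4 library 1 or 4 (−0.51 and −0.55, 0.063 and 0.0529). With depth class as a covariate CR44603 was at −0.34 (edgeR adjusted p = 0.698), CR31386 at −0.13 (0.726) and CR44597 at −0.21 (0.723), none of them called.

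Age separated the lncRNAs far more than genotype, as it did all genes. Between wild-type embryos of 14 to 17 h and of 2 to 4 h, 93 of 148 tested (62.8%) were higher and 38 (25.7%) lower in the older embryos, 88.5% in all. Over all 11636 genes tested 48.1% were higher and 41.8% lower, 89.9% in all. The older libraries lay wholly above the younger for 87 lncRNAs and below for 37, against 47.5% and 41.3% of all genes, and at least 2-fold calls were 90 higher and 35 lower, against 40.4% and 31.0%. The median log2 fold change was 2.03 for the lncRNAs, or 1.56 with the 21 tested members that had no counts in a whole group set at their bound, and 0.18 for all genes. In the younger embryos 30 of the 200 had no counts in any library, against 1 in the older wild type, and 127 to 150 members were detected per young library against 174 to 196 per older library. Of the 16 libraries 13 are of the older age, so the ranking by mean CPM favours lncRNAs of that age. Ranking by wild type of 14 to 17 h alone favours that age by construction and is no check on this. It gave 93 higher and 22 lower of 132 tested.

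The lncRNAs of the young embryo included the most abundant of that age. CR43887 had 6.23, 14.6, 4.95, 7.24 and 5.35 TPM at 14 to 17 h against 1149, 1479 and 1199 TPM at 2 to 4 h, a log2 fold change of −7.31 ± 0.26 (edgeR adjusted p = 3.57e-09). Its neighbour Dph1, 218 bases away on the opposite strand, changed by −0.64. CR43837 had 3.11 to 9.55 TPM at 14 to 17 h against 38.3, 45.2 and 39.8 TPM at 2 to 4 h (−2.81 ± 0.32, edgeR adjusted p = 1.37e-05).

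A pair of lncRNAs in the region of the Antennapedia complex of homeotic genes was lower at 14 to 17 h. CR44931 (3R:6877678-6885278) had 0.0744, 0.170, 0.0823, 0 and 0.0593 TPM at 14 to 17 h against 5.09, 5.40 and 5.04 TPM at 2 to 4 h, a log2 fold change of −5.82 ± 0.34 (edgeR adjusted p = 8.98e-08). CR44930 (3R:6765485-6766709), 224 bases from Ama, a cell-surface immunoglobulin-domain protein gene of the Antennapedia complex, had 0.0767, 0.230, 0.0660, 0 and 0 TPM against 4.88, 4.85 and 8.03 TPM (−5.79 ± 0.47, edgeR adjusted p = 9.60e-07). Ama itself changed by −5.24. Antp, 10975 bases from CR44931, had 1.73 ± 0.204 TPM at 14 to 17 h and 1.97 TPM at 2 to 4 h as a whole gene span.

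CR45266 (2R:12777324-12778995), 1546 bases from sca, which encodes a secreted protein of neural patterning, had 0.107, 0.800, 0.138, 0 and 0.149 TPM at 14 to 17 h against 8.06, 11.9 and 10 TPM at 2 to 4 h (−5.11 ± 0.54, edgeR adjusted p = 7.38e-06), and sca changed by −4.03. CR45570 (3R:30404429-30404989) had 0.435, 1.52, 0.748, 0.597 and 1.21 TPM, from 2, 7, 4, 1 and 2 counts, at 14 to 17 h against 20, 19.9 and 18.8 TPM at 2 to 4 h (−4.40 ± 0.31, edgeR adjusted p = 3.87e-07). It had no counts in any of the 8 mutant libraries, where it was not tested. CR43258 (3R:19329736-19330836), 3519 bases from Delta, the Notch ligand gene, had no counts in the 5 older wild-type libraries against 24, 23 and 39 counts at 2 to 4 h, and was at least 6.78-fold lower in the older embryos, taking 3 counts per library as the floor.

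Among lncRNAs of the older embryo, CR31781 had 32.7, 32.7, 27.9, 22.5 and 23.6 TPM at 14 to 17 h against 0.264, 0.0888 and 0.0916 TPM at 2 to 4 h (log2 7.44 ± 0.33, edgeR adjusted p = 1.33e-08). Its nearest coding gene, CG32832, starts 26 bases away on the opposite strand and was at or near 0 in every library. CR44024, on chromosome 4 (4:427331-431769), had 11.6, 10.9, 10.3, 8.40 and 7.30 TPM against 0.423, 0.440 and 0.327 TPM (4.63 ± 0.21). CR42839 (3R:16004321-16008073), 236 bases from the GATA factor gene srp, had 12, 11, 11.9, 8.69 and 7.78 TPM against 1.53, 2.72 and 1.56 TPM (2.48).

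For lncRNAs with no counts in the young libraries only a bound can be given. CR45646 had 4.86 to 7.36 TPM in the older wild type and was at least 22.4-fold higher there, with 3 counts per library as the floor. CR45377, CR43440, CR44598 and CR44754 were at least 11.9-fold, 10.1-fold, 10.3-fold and 7.47-fold higher. CR44597 and CR44598 lie side by side on 2L (12571160-12571606 and 12570672-12571157), with 1, 0 and 1 and with 0, 0 and 0 counts at 2 to 4 h. CR46233 (3R:26637805-26639515), 248 bases from the cuticle protein gene TwdlS, had 7.18, 7.07, 7.30, 4.43 and 3.92 TPM at 14 to 17 h against 0, 1 and 0 counts at 2 to 4 h (edgeR adjusted p = 8.41e-07), and TwdlS changed by 5.44.

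**Figure D5:**
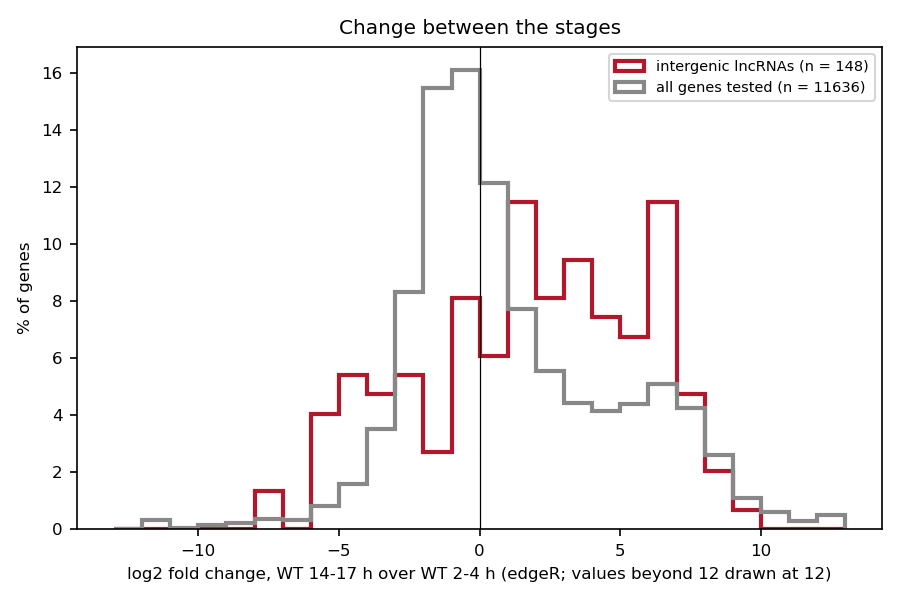
Share of genes (percent, vertical) by log2 fold change of wild type of 14 to 17 h over wild type of 2 to 4 h (horizontal), for the 148 lncRNAs tested and for all 11636 genes tested. The lncRNAs lie further to the right, with a median of 2.03 against 0.18; fitted values of lncRNAs with no counts in a whole group are not bounds.

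A few age differences were small. CR45102 (X:3701857-3703285) had 27.9, 29.3, 25.9, 24.9 and 25.5 TPM at 14 to 17 h against 14.1, 21.6 and 16.1 TPM at 2 to 4 h (log2 0.66, edgeR adjusted p = 0.000381), and 28.8, 28.5, 23.5 and 29.7 TPM in ORC4 and 26.5, 37.4, 28.7 and 29.5 TPM in ORE50/ORC4. The ranges of all 3 groups of 14 to 17 h overlapped. The ORE50/ORC4 call of 0.27 (edgeR adjusted p = 0.0166) was lost in 7 of 21 alternatives. Among these were the fit without ORE50/ORC4 library 2 (0.22, edgeR adjusted p = 0.0523) and limma on log2(TPM + 1) (0.18, adjusted p = 0.163). The call was also lost against wild-type libraries 5 and 6 alone (0.31, edgeR adjusted p = 0.0813) or 1 to 3 alone (0.23, 0.0966). By mean TPM the shortest member, CR40469 (X:122493-122706, 214 bases), led the class in ORC4 and in wild type of 14 to 17 h. CR31781 led it in ORE50/ORC4 and CR43887 at 2 to 4 h. CR40469 had 229, 238, 129 and 241 TPM in ORC4, 45.0, 48.3, 90.5 and 44.8 TPM in ORE50/ORC4 and 158, 47.0, 104, 0 and 0 TPM in wild type of 14 to 17 h. It rests on at most 90 counts in a library, is at 0 in both shallow wild-type libraries, and was not called in either mutant (log2 1.5, edgeR adjusted p = 0.076, and −0.26, 0.784).

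The calls of the nearest coding genes are set against the shares of all genes called, 15.5% higher and 17.2% lower in ORC4 and 27.0% each way in ORE50/ORC4. Of the 54 lncRNAs higher in ORE50/ORC4, the neighbour was called higher for 19, lower for 15, not called for 18 and not tested for 2. Of the 37 higher in ORC4, it was called higher for 7, lower for 6, not called for 23 and not tested for 1. Of the 18 lower in ORE50/ORC4 it was called lower for 5 and higher for 7, and of the 11 lower in ORC4 it was called lower for 1 and higher for 1. Between the ages 48.1% of all genes were called higher and 41.8% lower. There 56 of 93 higher lncRNAs had a neighbour called higher and 21 one called lower. Of the 38 lower lncRNAs, 24 had a neighbour called lower and 7 one called higher. Neighbours share position with the lncRNA, 30 members share their nearest gene with another member, and no test was made of these counts. Of the 19 members just downstream of a coding gene on its strand, 14 were tested; 4 were higher and 1 lower in ORC4, 7 higher and 1 lower in ORE50/ORC4.

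Some members are neighbours of each other. CR45700 (2L:19322938-19326106) and CR45258 (2L:19327367-19327963) lie near the receptor gene dnt and were both lower at 14 to 17 h, CR45700 by −5.29 on the log2 scale. CR45258 had 0.977, 1.07, 1.21 and 0.432 TPM in ORC4, 11.7, 6.19, 4.47 and 6.38 TPM in ORE50/ORC4, 1.19, 2.37, 1.36, 1.63 and 1.65 TPM in wild type of 14 to 17 h and 16.3, 9.77 and 17.0 TPM at 2 to 4 h. ORE50/ORC4 thus lay above ORC4 and same-age wild type and mostly below the young embryos. The log2 fold change was 2.22 ± 0.35 in ORE50/ORC4 over wild type (edgeR adjusted p = 0.000213), 3.06 over ORC4 and −3.15 between the ages.

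The lncRNAs were also counted by structure, position and level, with no test between the classes. Over all genes 15.5% were called higher and 17.2% lower in ORC4, and 27.0% each way in ORE50/ORC4. Of 82 tested with a single exon block, 18 were higher and 6 lower in ORC4 and 30 higher and 11 lower in ORE50/ORC4; of 70 with more than one block the counts were 19 and 5, and 24 and 7. Of 52 tested at least 1 kb from any gene, 14 were higher and 3 lower in ORC4 and 19 higher and 5 lower in ORE50/ORC4. Their median log2 fold change in ORC4 was 0.00, against 0.23 for those closer to a gene. By rank, the 48 tested of the highest 50 had 15 higher and 3 lower in ORC4 and 20 higher and 5 lower in ORE50/ORC4. On the X chromosome 28 were tested, with 3 higher and 3 lower in ORC4 and 11 higher and 5 lower in ORE50/ORC4, where all X-linked genes gave 12.2% and 14.1%, and 23.4% and 26.6%. Of 15 members that overlap annotated transposons, 11 were tested and 3 were higher and none lower in each mutant; reads of such members may be shared with other copies.

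Several weakly expressed lncRNAs showed clear mutant differences at low counts, and are named here after their values were seen. CR32368 (3L:7915437-7915846) had 46, 31, 38 and 29 counts in ORC4, 17, 14, 13 and 19 in ORE50/ORC4 and 2, 0, 3, 1 and 3 in wild type of 14 to 17 h (edgeR adjusted p = 4.58e-05 and 2.84e-05). CR45180 on 3L had 10, 10, 9 and 9 counts in ORC4, 6, 4, 4 and 6 in ORE50/ORC4 and 0, 0, 1, 0 and 0 in wild type (edgeR adjusted p = 3.89e-05 and 1.85e-05). CR45284 (2L:14032006-14038306) was high in ORE50/ORC4 alone, with 1, 1, 1 and 2 counts in ORC4, 13, 21, 8 and 6 in ORE50/ORC4 and 3, 0, 1, 1 and 1 in wild type (edgeR adjusted p = 4.16e-05 for ORE50/ORC4). Wild-type libraries 1 to 3 are of like depth to the ORC4 libraries, and libraries 5 and 6 to the ORE50/ORC4 libraries.

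CR44640, CR43440 and CR45517 were low in both mutants and are likewise named after their values were seen. CR44640 (2R:20302195-20302995) had 4, 6, 4 and 3 counts in ORC4, 1, 1, 0 and 0 in ORE50/ORC4 and 11, 20, 28, 10 and 8 in wild type (edgeR adjusted p = 0.000924 and 0.000187). CR43440 (3R:28593488-28594283) had 2.09, 1.28, 1.74 and 1.01 TPM in ORC4, 0.288, 0.295, 1.86 and 0.654 TPM in ORE50/ORC4 and 4.08, 4.34, 5.78, 5.06 and 5.88 TPM in wild type. On the log2 scale the fold change was −1.74 ± 0.36 in ORC4 (edgeR adjusted p = 0.00271) and −2.65 ± 0.47 in ORE50/ORC4 (edgeR adjusted p = 0.000434). CR45517 (X:5428483-5429256) had 0.812, 1.33, 0.278 and 0.747 TPM in ORC4, 0.299, 0.306, 0.386 and 0.679 TPM in ORE50/ORC4 and 3.69, 2.87, 5.18, 2.63 and 1.91 TPM in wild type. The mutant groups overlapped each other for CR43440 and CR45517, and both lay below wild type. For CR45517 the log2 fold changes were −2.14 ± 0.39 and −2.90 ± 0.52 (edgeR adjusted p = 0.00115 and 0.000527).

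Other gene lists in the same libraries are set against the 15.5% and 27.0% of all genes called higher and the 17.2% and 27.0% called lower in ORC4 and ORE50/ORC4. The RNA exosome, which degrades many noncoding transcripts, had 1 of 9 genes lower in ORC4 (Dis3, log2 −0.31) and 3 of 9 lower in ORE50/ORC4 (Rrp6 −1.07, Mtr4 −0.80, Dis3 −0.31), with a summed level of 159 to 212 CPM in ORC4, 111 to 127 in ORE50/ORC4 and 147 to 181 in wild type. Its median log2 fold change was 0.05 in ORC4 and 0.16 in ORE50/ORC4. Midgut markers summed to 122 to 141 CPM in ORC4, 119 to 141 in ORE50/ORC4 and 183 to 359 in wild type. In each mutant 4 of 5 were lower and 1, GATAe, was higher (log2 0.29 and 0.37, edgeR adjusted p = 0.00915 and 0.00111). GATAe alone had 100.3 to 122 CPM in ORC4. Hemocyte markers summed to 126 to 145, 134 to 164 and 169 to 188 CPM in the same groups, with 4 of 5 lower in each. Neuron markers summed to 1021 to 1109, 849 to 1204 and 1247 to 1422 CPM, with 1 of 5 lower in ORC4 and 3 of 5 in ORE50/ORC4. Glia markers summed to 761 to 819, 778 to 824 and 661 to 707 CPM, with 1 of 5 higher in ORC4 and 3 of 5 in ORE50/ORC4. Early patterning genes summed to 64.8 to 121, 17.5 to 24.5 and 45.8 to 97.5 CPM, against 477 to 546 CPM at 2 to 4 h, with 2 of 4 tested lower in ORC4 and 4 of 4 in ORE50/ORC4. Much of the spread in these sums at 14 to 17 h was bcd, with 39.2 to 90.3, 0 to 2.17 and 13.8 to 61.6 CPM. Its log2 fold change was 0.67 in ORC4 (edgeR adjusted p = 0.358) and −5.73 in ORE50/ORC4 (edgeR adjusted p = 0.000121). The part of these lists' differences in the lncRNA differences was not tested.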

How the data were processed

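RNA-seq was made from whole embryos, 16 libraries in 4 groups, which the submitters' labels give (n = 4, 4, 5 and 3); the labels do not say that libraries come from separate collections, so p-values measure the spread between libraries, which may be technical. Per the file headers, the deposited tables give for each gene its length, effective length, the estimated counts and the TPM of 1 library. CASAVA 1.8.2, kallisto and the dm6 build stand in the submitters' processing notes; settings are not given in the sources used here. The deposited estimated counts refer to whole gene spans, introns included: the length equals the annotated span for 197 of 200 members. TPM as deposited by the authors divides by that span, and so understates spliced genes. Kallisto shares reads among similar sequences; counts were whole in every library (within 1e-06) for 176 members and in none for 7.

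Names came from the FlyBase symbols and positions from the BDGP6 annotation, the assembly that dm6 names. These values, rounded to integers, were tested with edgeR 4.0.16 in R 4.3.3 (quasi-likelihood, TMM scaling, filterByExpr with a minimum count of 10), in 1 fit of the 13 libraries of 14 to 17 h and 1 fit of the 8 wild-type libraries. Alternatives used limma 3.58.1 (log2(TPM + 1) or log2(TPM + 0.1)), DESeq2 1.42.0, other scalings, filters, member sets and left-out libraries, and scripts were tested on simulated data. No sequence of the lncRNAs or their promoters was used, and promoter motifs were not analysed here. Intervals and floors of 3 counts cover counting error only.

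The members and gene lists were chosen with earlier results of these data known. Named are lola, the 10 members highest in mean CPM, members on the list of characterised lncRNAs, those next to the limit of 200, and in each comparison up to 8 lower and 8 higher members with the largest change, an adjusted p under 0.05, an average of 50 or more estimated counts in whichever group is higher, and no overlap between groups. Others are marked as chosen after their values were seen, or named as neighbours, by bound or among calls shared with separate wild-type libraries.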

Additional observations from a re-analysis of the deposited data

Results flagged for a closer look

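A library far from the others of its group was found 8 times among 111 groups of 4 or 5 libraries, against about 1 in 20 by chance. That rate does not hold where all other libraries of a group are at 0, since any value above 0 is then flagged. CR43887 had 14.6 TPM in wild-type library 2 of 14 to 17 h, against 4.95 to 7.24 TPM in the other 4. In the same library CR45266 had 0.800 TPM against 0 to 0.149 TPM, and CR44677 had 0.320 TPM against 0 to 0.0535 TPM; all 3 lncRNAs are highest at 2 to 4 h. In ORE50/ORC4 library 1 CR45266 had 0.117 TPM and CR44677 had 0.234 TPM, against 0 TPM in the other 3, so any value there would have been flagged. The alphagamma-element transcript CR32865 had 30.4 TPM in ORC4 library 4, against 17.3 to 18.4 TPM. CR44597 had 13.5 TPM in ORE50/ORC4 library 2, against 7.62 to 8.06 TPM. CR44938 had 0.518 TPM in wild-type library 6, against 1.30 to 1.58 TPM.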

How the results depend on the processing

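No called result changed sign under an alternative, and no result gained a call with the other sign. Uncalled results did cross 0, such as marge in ORC4 over wild type (−0.33 to 0.48) and CR42839 in ORE50/ORC4 over wild type (−0.33 to 0.12). The 88 named results had 1820 alternative values, of which 1717 kept their side of the threshold, 90 lost a call and 13 gained one. Counts below are higher, then lower, lncRNAs. Beside 37 and 11 in ORC4 over wild type, the higher count was 20 at an adjusted p under 0.01, 18 with the libraries of shared numbers, 21 against wild-type libraries 5 and 6 and 23 against libraries 1 to 3. Members at least 1 kb from any gene gave 14 and 3, the 100 highest 23 and 6, and thinned libraries 19 and 3. Beside 54 and 18 in ORE50/ORC4 over wild type, the counts were 34 and 10 at an adjusted p under 0.01, 19 and 5 at least 1 kb from any gene, 28 and 9 with the libraries of shared numbers, 26 and 11 with those 2 groups alone in the fit, 24 and 6 thinned, 28 and 4 against wild-type libraries 5 and 6, and 29 and 9 against libraries 1 to 3; the 100 highest gave 35 higher. Beside 23 and 12 in ORE50/ORC4 over ORC4, they were 15 and 1 at an adjusted p under 0.01, 9 and 5 at 2-fold or more and 11 and 3 at least 1 kb from any gene; thinned libraries gave 15 higher and depth class as a covariate 2 lower. Beside 93 and 38 for wild type of 14 to 17 h over 2 to 4 h, they were 36 and 16 at least 1 kb from any gene and 41 and 24 thinned. A mean of at least 10 counts gave 58 higher, the 100 highest 19 lower, and the 200 highest by wild type of 14 to 17 h, added after seeing the data, 22 lower. Subsets hold fewer members, and thinning left 69 testable members (73 between the ages).

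Leaving out each library in turn gave 21 to 32 and 6 to 12 in ORC4, 40 to 59 and 11 to 20 in ORE50/ORC4, 18 to 26 and 5 to 15 between the mutants, and 81 to 101 and 37 to 39 between the ages. Correlations of same-numbered libraries ran from −0.0833 to 0.323, and not every library correlated best with its own number. Over so few libraries this cannot decide whether replicate numbers pair them. With the replicate number as a block the counts were 20 and 11 in ORC4, 24 and 10 in ORE50/ORC4, 18 and 7 between the mutants, and 84 and 36 between the ages, over the libraries of shared numbers alone. Depth limits the weakest members: 48 of 200 were not tested at 14 to 17 h and 52 between the ages. The planned description of promoter sequences was not run.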
